A study of Mus musculus with 24 samples.

Results

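Naive pluripotency in mouse embryonic stem cells (mESCs) rests on a small set of nuclear factors, and 10 of them are described here: *Nanog*, *Zfp42*, *Klf2*, *Klf4*, *Klf5*, *Esrrb*, *Tbx3*, *Tfcp2l1*, *Dppa3* and *Prdm14*. They were picked by name, as the usual naive factors, and were looked up among the 23119 genes of the expression table. All 10 were found, and all 10 were among the 12105 genes outside X and Y whose mean over the 24 libraries was at least 1 FPKM (read fragments scaled to transcript length and library size). The libraries were poly(A) RNA-seq of the female mESC line JB4/EI7HZ2, which has a JF1 mother and a B6 father and a drug resistance cassette on each X, and of a SmcHD1-mutant line (KO) made from it with Cas9, which carries short deletions and premature stop codons on both alleles. SmcHD1 is a chromatin protein best known for its role on the inactive X. Both genotypes were taken through 4 stages, namely mESCs, day 7 and day 9 of differentiation, and neural stem cells (NSCs), with 3 libraries in each of the 8 groups. The mESCs were kept in serum medium with LIF, a MEK inhibitor and a GSK3 inhibitor, and with G418 and Zeocin to hold both X chromosomes. Day 7 and day 9 cells were aggregates formed from epiblast-like cells that had been made with Activin A and FGF2, and the NSCs were derived from mESCs by a separate protocol, on gelatin and then as aggregates that were let attach, and grown in FGF2 and EGF. Day 9 cells are therefore not the parents of the NSCs. WT and KO were 1 line each, so genotype and line cannot be told apart. Unless stated otherwise, the p-values below measure the spread between libraries of the same group, pooled over the 8 groups. The libraries are described as biologically independent for the JB4/EI7HZ2 mESCs and the cells derived from them, without mention of the KO line.

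The naive state is held by signals and by the factors themselves. LIF activates STAT3, which raises *Klf4* and *Tfcp2l1*. Inhibition of GSK3 spares beta-catenin, which relieves repression of *Esrrb*, *Klf2* and *Tfcp2l1* by Tcf7l1, and inhibition of MEK keeps the ERK pathway from breaking up the network. The factors bind each other's regulatory regions together with Oct4 (*Pou5f1*) and Sox2. Loss of the naive factors is an early step when mESCs leave pluripotency, and *Dppa3* and *Prdm14* are used again in germ cells.

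The 10 genes lie on autosomes, and coordinates are given on mm9. *Nanog*, a homeodomain factor, lies at chr6:122657586-122663796 on the plus strand, and *Dppa3*, which protects the maternal genome from demethylation, lies near it at chr6:122576442-122580289 on the same strand. *Klf2* (chr8:74842961-74845553, plus), *Klf4* (chr4:55540009-55545347, minus) and *Klf5* (chr14:99697910-99712628, plus) encode zinc finger factors of the Krüppel-like family. *Zfp42*, which encodes the zinc finger protein Rex1, lies at chr8:44380421-44392363 on the minus strand. *Esrrb*, an orphan nuclear receptor, spans chr12:87702067-87862578 on the plus strand. *Tfcp2l1*, a grainyhead-like factor downstream of LIF, lies at chr1:120524522-120581745 on the plus strand, and *Prdm14*, a PR domain repressor, at chr1:13103509-13117244 on the minus strand. *Tbx3*, a T-box factor, lies at chr5:120120678-120134610 on the plus strand. All 10 are protein-coding, and each value covers the whole gene. In the annotation *Tbx3* overlaps Gm2301, *Tfcp2l1* overlaps small RNA genes named 5S_rRNA and U1, and *Nanog* shares its entry with *Nanogpd*. How reads shared with such neighbours or with processed copies were divided is not given in the sources used here.

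Because the 10 genes fell together, their promoters were read for short motifs of the factors involved. RefSeq promoters (GRCm38.p6) were at hand for 6 of the 10 genes, and the 250 bases before the start of each were found once in mm9. Motifs were searched on both strands. A composite of the SOX and OCT sites, with any base allowed between its parts, was found in 1 of 27025 promoters of that length (0.0037%), that of *Nanog*, where it reads TTTGCATTACAATG and begins 75 bases before the RefSeq start. It contains the POU octamer core TTTGCAT, which was also in the promoter of *Zfp42* and in 4.06% of all promoters. The KLF box CCACACCC, found in 3.19% of promoters, was in that of *Zfp42*, where it overlaps a GC box. The GC box GGGCGG was in the promoters of *Klf2*, *Klf4* and *Zfp42* and in 32.9% of all. The TATA box TATAAA was in that of *Tfcp2l1*, 28 bases before the start, and in 13.0% of all. The nuclear receptor site TCAAGGTCA (0.366% of promoters) and the STAT site TTCCNGGAA (0.914%) were not found in these 6 windows. The promoters that show these differences are printed with motif matches in capitals, on the strand of the gene, for *Nanog* at chr6:122657257-122657506, *Zfp42* at chr8:44392364-44392613, *Klf4* at chr4:55545348-55545597 and *Tfcp2l1* at chr1:120524272-120524521.
Nanog: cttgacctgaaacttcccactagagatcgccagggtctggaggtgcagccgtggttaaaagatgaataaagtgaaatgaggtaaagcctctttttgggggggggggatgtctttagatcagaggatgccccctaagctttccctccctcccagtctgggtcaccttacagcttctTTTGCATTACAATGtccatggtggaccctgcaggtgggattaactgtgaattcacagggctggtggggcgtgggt
Zfp42: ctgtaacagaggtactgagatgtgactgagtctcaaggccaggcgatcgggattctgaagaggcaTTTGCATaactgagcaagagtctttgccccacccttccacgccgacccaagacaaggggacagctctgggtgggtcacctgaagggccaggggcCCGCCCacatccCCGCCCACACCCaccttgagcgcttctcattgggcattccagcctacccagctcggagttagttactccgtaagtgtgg
Klf4: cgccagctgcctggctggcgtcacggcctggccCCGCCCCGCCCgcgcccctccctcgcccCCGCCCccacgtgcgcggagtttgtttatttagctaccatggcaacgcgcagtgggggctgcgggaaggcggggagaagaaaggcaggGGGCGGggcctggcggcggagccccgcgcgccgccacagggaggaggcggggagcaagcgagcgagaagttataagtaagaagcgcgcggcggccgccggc
Tfcp2l1: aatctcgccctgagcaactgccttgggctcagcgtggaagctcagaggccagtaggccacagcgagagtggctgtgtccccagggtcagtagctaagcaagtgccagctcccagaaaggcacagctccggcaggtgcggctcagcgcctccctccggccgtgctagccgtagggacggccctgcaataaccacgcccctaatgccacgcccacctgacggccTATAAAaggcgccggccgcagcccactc
The 6 promoters were not alike in base composition. The ratio of observed to expected CpG was 0.182 in *Nanog*, 0.264 in *Esrrb*, 0.423 in *Zfp42* and 0.609 in *Tfcp2l1*, against a median of 0.378 over all promoters. It was 0.915 in *Klf2* and 0.941 in *Klf4*.

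The labels were first checked against marker genes. *Smchd1* RNA in KO cells ran from 15.5% of the WT mean at day 7 to 21.5% in NSCs, and WT and KO libraries did not overlap at any stage. The core factor *Pou5f1* was at 1359 ± 109 FPKM in WT mESCs and 0.385 ± 0.486 in WT NSCs (mean ± SD, n = 3, as throughout). The summed level of 6 neural markers rose from 91.2 to 130 FPKM in WT mESC libraries to 5229 to 6714 in WT NSC libraries. Relative read numbers, worked out from ratios of low values between libraries, ran from 0.811 to 1.15 of the median library.

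In mESCs the 10 factors covered a wide range of levels. In WT mESCs *Nanog* was highest, at 856 ± 90.4 FPKM, and its lowest library, 755, was above every library of the other factors. *Klf2* followed at 237 ± 74.6 and *Esrrb* at 204 ± 27.3 FPKM, with overlapping libraries, so *Klf2* and *Esrrb* cannot be ordered. *Klf4* was at 138 ± 30.5, *Dppa3* at 119 ± 36.6, *Tfcp2l1* at 107 ± 5.78 and *Klf5* at 106 ± 24.8 FPKM. The libraries of these 4 genes overlapped, so their order cannot be read. *Zfp42* (63.1 ± 7.94), *Prdm14* (56.2 ± 9.59) and *Tbx3* (51.1 ± 14.9) were lowest and also overlapped each other. The KO mESC means for the 10 genes ran from 53.6 FPKM for *Tbx3* to 823 FPKM for *Nanog*.

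All 10 factors fell by day 7 in both genotypes. In WT cells 10 of 10 were called lower than in mESCs, where 30.2% of all tested genes were, and in KO cells 10 of 10 were, where 31.8% of tested genes were. A call here is an adjusted p under 0.05 in limma on log2(FPKM + 1), with the Benjamini-Hochberg adjustment over all tested genes. No library of day 7 reached the mESC libraries of its genotype for any of the 10. The median difference was -3.52 in WT and -3.83 in KO, against -0.02 and -0.04 over all tested genes. In bulk RNA fewer cells that express a gene and less RNA per cell cannot be told apart.

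The depth of the fall differed between the factors. *Tfcp2l1* was among those that fell furthest. Its 3 WT mESC libraries were at 102, 113 and 108 FPKM, and its WT day 7 libraries at 5.08, 2.91 and 1.91 FPKM, or 3.07% of the mESC mean. The log2 difference was -4.72 ± 0.19 (SE, limma adjusted p = 1.47e-14). *Klf4*, which like *Tfcp2l1* is a target of STAT3, was at 140, 167 and 106 FPKM in WT mESCs and at 7.83, 3.57 and 2.03 at day 7. That left 3.25% of its mESC mean, a log2 difference of -4.78 ± 0.36 (limma adjusted p = 6.27e-10). *Tbx3* kept 3.69% of its mESC mean in WT and *Klf5* 6.91%. In KO cells the order was similar by the means, with 1.91% left of *Tfcp2l1*, 2.30% of *Klf4* and 2.80% of *Tbx3*.

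*Dppa3* fell least. Its WT libraries were at 137, 77.2 and 144 FPKM in mESCs and at 48.7, 29.9 and 45.5 FPKM at day 7, which is 34.7% of the mESC mean. Its log2 difference was -1.48 ± 0.27 (limma adjusted p = 6.69e-05), and in KO cells 21.9% of its mESC mean was left. Per library, *Dppa3* kept between 25.1% and 40.8% in WT, above every library of the other 9 genes. *Klf2* with 15.8% and *Zfp42* with 15.2% came next in WT. *Nanog* kept 8.82%, *Esrrb* 8.78% and *Prdm14* 7.74%, and the libraries of these 3 overlapped. *Nanog* nevertheless remained the most abundant of the 10 at day 7 by its mean, at 75.5 ± 31.6 FPKM in WT and 79.8 ± 16.6 in KO. The percentages and the log2 differences rank genes differently, since adding 1 FPKM damps the change of low genes.

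**Figure D1:**
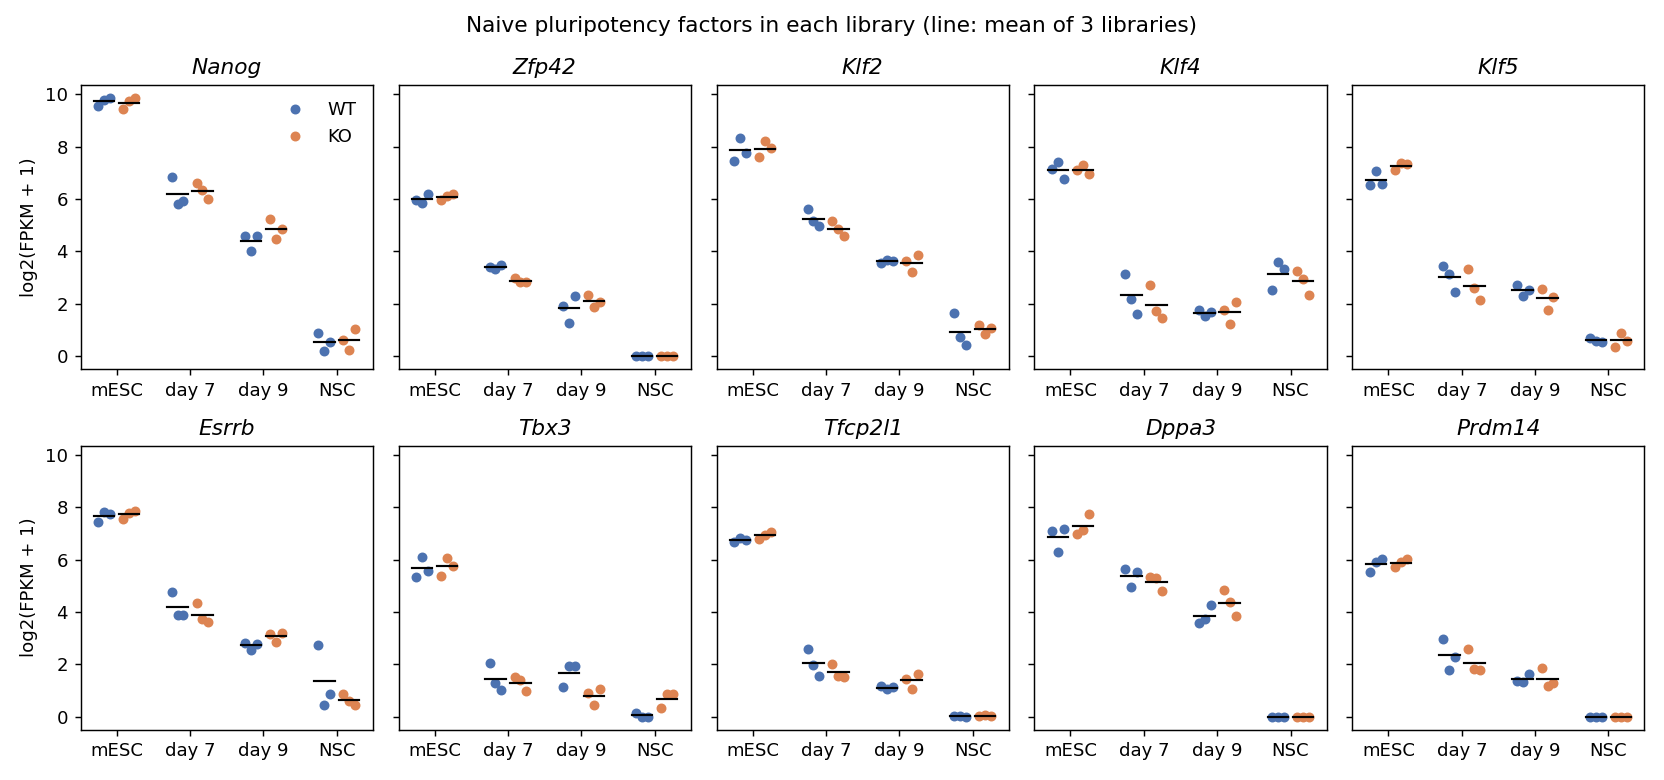
Level of each factor in every library, as log2(FPKM + 1), by stage, with WT in blue and KO in orange and a line at the mean of 3 libraries. All 10 genes drop from mESCs to day 7 in both genotypes, and *Klf4* is the gene whose NSC libraries lie above its day 9 libraries.

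Within a stage the 10 factors often moved together between libraries. At day 7 replicate 1 was the highest library for 9 of the 10 genes in WT and for 10 of 10 in KO. Replicate 3 was the lowest for 6 genes in WT and for 10 in KO. *Pou5f1* had the same order, with 264, 189 and 181 FPKM in WT replicates 1, 2 and 3 and 284, 248 and 190 in KO. *Nanog*, for example, was at 112, 55.4 and 59.1 FPKM in the WT day 7 libraries. The 3 day 7 libraries of a genotype thus did not hold the same amount of naive RNA, and the cause of this was not tested.

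Between day 7 and day 9 the fall went on for most of the factors in WT. Here 7 of 10 were called lower at day 9 than at day 7, where 15.3% of tested genes were. These were *Nanog*, *Zfp42*, *Klf2*, *Esrrb*, *Tfcp2l1*, *Dppa3* and *Prdm14*. *Nanog* libraries were at 22.7, 15.1 and 22.8 FPKM at day 9, below all day 7 libraries, and the log2 difference was -1.80 ± 0.26 (limma adjusted p = 2.15e-05). *Klf4* and *Klf5* had differences of -0.66 (95% interval -1.41 to 0.10) and -0.49 (-1.04 to 0.05). *Tbx3* differed by 0.22 (-0.35 to 0.80). The libraries of these 3 genes overlapped between the days. In KO cells 4 of 10 were called lower, where 13.4% of tested genes were, namely *Nanog*, *Zfp42*, *Klf2* and *Dppa3*. The *Dppa3* call was not stable. Its log2 difference was -0.80 (limma adjusted p = 0.027), and the call was lost without KO day 7 replicate 1 or 2 (adjusted p = 0.0982 and 0.0849) and without KO day 9 replicate 2 or 3 (0.0603 and 0.167). The *Prdm14* call in WT was lost without WT day 7 replicate 1 (0.0626).

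By day 9 all 10 factors were called lower than in mESCs in both genotypes. Of all tested genes, 35.1% were called lower in WT and 35.6% in KO. *Dppa3* again kept the largest share of its mESC mean, 11.6% in WT and 12.7% in KO. *Tfcp2l1* kept the smallest share by its mean, with 1.08% in WT and 1.37% in KO. *Klf4* was at 1.56% in WT and 1.65% in KO, and *Tbx3* at 4.52% in WT and 1.44% in KO. *Nanog* was at 2.36% in WT and 3.47% in KO. The medians of the log2 differences were -4.31 in WT and -4.74 in KO.

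**Figure D2:**
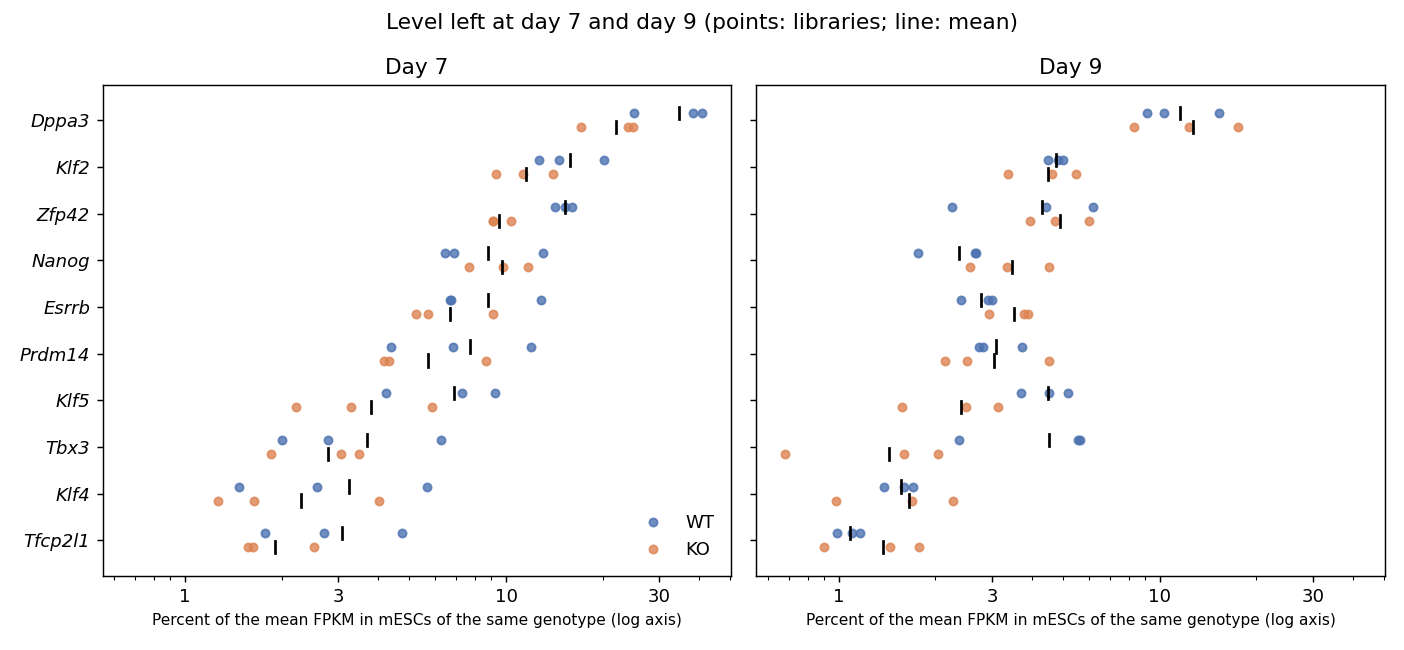
Percent of the mean mESC level of the same genotype left at day 7 and day 9, on a log axis, with a point for each library and a line at the mean (WT blue, KO orange). *Dppa3* lies furthest to the right at both times, with 34.7% left in WT at day 7 and 11.6% at day 9. *Tfcp2l1* has the lowest mean of the 10 in both genotypes at both times, though its day 7 libraries overlap those of *Klf4*.

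In NSCs most of the factors were at or near 0. All 10 were called lower than in mESCs, where 38.3% of tested genes were in WT and 38.2% in KO. *Zfp42*, *Dppa3* and *Prdm14* were listed at 0 FPKM in all 6 NSC libraries. *Tfcp2l1* ran from 0 to 0.0413 FPKM over these 6 libraries and *Nanog* from 0.155 to 1.05 FPKM. *Klf5* ran from 0.275 to 0.860 FPKM and *Klf2* from 0.328 to 2.12 FPKM. The median log2 difference from mESCs was -6.22 in WT and -6.78 in KO, which includes the 3 genes at 0, whose fitted change depends on the added 1 FPKM. Scaling all libraries to the same FPKM sum moved the median of all genes by up to 0.43, in KO NSCs against KO mESCs, and by 0.19 to 0.37 in the WT stages against mESCs. All 10 factors were still called lower in each of these comparisons.

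*Klf4* was the exception among the 10. Its WT libraries were at 2.35, 1.91 and 2.2 FPKM at day 9 and at 4.68, 11.1 and 8.95 FPKM in NSCs, with no overlap. Its KO libraries were at 2.34, 1.36 and 3.14 FPKM at day 9 and at 8.61, 6.65 and 4.10 in NSCs, again with no overlap. *Klf4* was thus called higher in NSCs than at day 9 in both genotypes, by 1.48 ± 0.36 on the log2 scale in WT (limma adjusted p = 0.00166) and by 1.17 ± 0.36 in KO (adjusted p = 0.00868). The KO call was lost without KO day 9 replicate 2 (adjusted p = 0.0503). NSCs still held only 5.97% of the *Klf4* level of WT mESCs and 4.67% of that of KO mESCs. WT NSC and WT day 7 libraries of *Klf4* overlapped.

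Nearly all of the other factors were lower in NSCs than at day 9. In WT all 10 differed, 9 of them downward, where 55.1% of tested genes were called in either direction, and in KO 9 of 10 differed, 8 downward, where 59.6% were. Of the 12105 tested genes 3664 were called lower in WT and 3919 in KO. *Tbx3* was the gene without a call in KO, at 0.856, 0.364 and 1.09 FPKM at day 9 and 0.260, 0.815 and 0.817 FPKM in NSCs (-0.12, 95% interval -0.69 to 0.46). *Esrrb* was called lower in WT NSCs by -1.38 ± 0.39 on the log2 scale (limma adjusted p = 0.00487), although the libraries overlapped. Its WT NSC libraries were at 5.66, 0.357 and 0.839 FPKM, so that replicate 1 was at the level of the day 9 libraries, 6.13, 4.91 and 5.94 FPKM. WT NSC replicate 1 was also the highest of the 3 WT NSC libraries for 6 of the 10 factors, *Nanog* (0.823 FPKM) and *Klf2* (2.12 FPKM) among them, and for 8 of the 12 other naive genes above 0 there, while *Pou5f1* was at 0 in it. The source of this RNA was not tested. Without that library the *Esrrb* difference was -2.07 (adjusted p = 3.17e-07). With only these 2 groups in the fit the call was lost (adjusted p = 0.0769).

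None of the 10 factors was called different between KO and WT at any stage. KO and WT were compared in limma at each stage, and 0 of 10 genes passed at each of the 4 stages. *Zfp42*, *Dppa3* and *Prdm14* were at 0 FPKM in every NSC library, so they could not be called or lie apart there. The NSC counts out of 10 include them. Of all tested genes 0.529% were called in mESCs and 6.02% in NSCs, and 3.68% at day 7 and 6.68% at day 9. At each stage 1 of the 10 had an unadjusted p under 0.05, where 7.66% of all tested genes did in mESCs and 18.1% in NSCs, and 13.9% at day 7 and 17.3% at day 9. The ranges of KO and WT were apart for 2 of the 10 genes at day 9 and for 1 at each of the other stages. Over all tested genes this held for 11.0% in mESCs and 16.7% in NSCs, and for 24% at day 7 and 32.3% at day 9, so the shares of the 10 lay near or below those of all genes. In mESCs and NSCs the replicate numbers paired the libraries, and with the replicate block 98 genes in place of 64 were called in mESCs and 1145 in place of 729 in NSCs, with 0 of the 10 factors among them at either stage.

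The estimates were not all equally tight, and differences below a certain size could not be seen. In mESCs they ran from -0.06 for *Nanog* to 0.55 for *Klf5*, and 9 of 10 were above 0. For *Nanog* the 95% interval was -0.61 to 0.48, and for *Esrrb*, the widest, -0.74 to 0.87. At day 7 9 of 10 were below 0, with a median of -0.30, from -0.52 for *Zfp42* to 0.13 for *Nanog*. At day 9 6 were above 0 and 4 below, with a median of 0.14. At day 9 *Nanog* had a difference of 0.47 (-0.08 to 1.01) and *Dppa3* one of 0.50 (-0.05 to 1.05). In NSCs 4 were above 0 and 3 below, from -0.71 for *Esrrb* (-1.52 to 0.09) to 0.63 for *Tbx3*. For *Esrrb* WT NSC replicate 1 was at 5.66 FPKM, against 0.357 and 0.839 in the other WT NSC libraries. The 10 genes share libraries, so their common sign at a stage is not 10 separate observations.

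**Figure D3:**
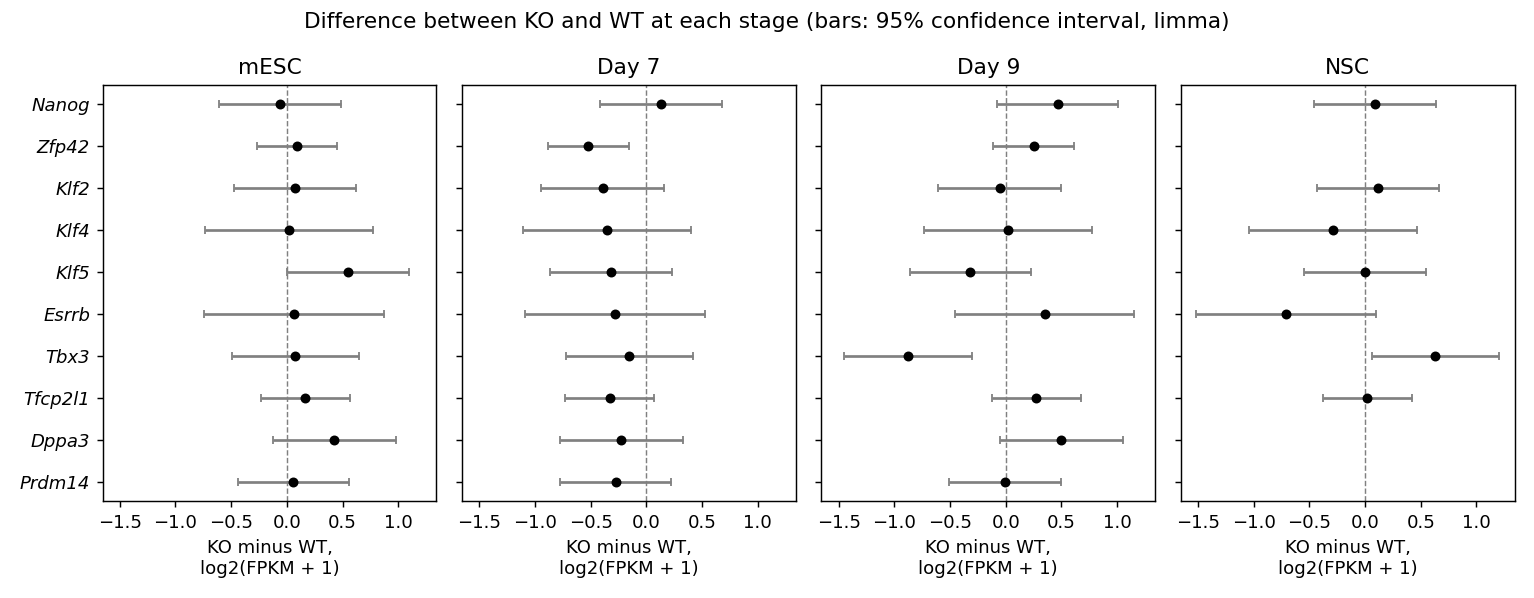
Difference between KO and WT in log2(FPKM + 1) for each factor and stage, with 95% confidence intervals from limma. *Zfp42*, *Dppa3* and *Prdm14* are left out in NSCs, where all their libraries were at 0. Most intervals cross 0, and those that do not belong to *Klf5* in mESCs, *Zfp42* at day 7 and *Tbx3* at day 9 and in NSCs, none of which passed the adjustment.

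*Klf5* in mESCs, *Zfp42* at day 7 and *Tbx3* at day 9 and in NSCs had an unadjusted p under 0.05. *Klf5* was at 91.0, 135 and 92.8 FPKM in WT mESCs and at 138, 163 and 160 FPKM in KO mESCs. Every KO library was thus above every WT library, and the log2 difference was 0.55 (95% interval 0.01 to 1.10, limma adjusted p = 0.648). *Zfp42* was at 9.65, 9.00 and 10.2 FPKM in WT day 7 cells and at 6.94, 6.11 and 6.10 in KO day 7 cells. Here the KO libraries were the lower ones, by -0.52 (-0.89 to -0.16, limma adjusted p = 0.117). The call was gained with only the day 7 groups in the fit (adjusted p = 0.0373) and with the replicate block (0.0474). The replicate numbers did not pair the libraries at day 7. At day 9 *Zfp42* overlapped again, with a difference of 0.25 (-0.11 to 0.62).

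*Tbx3* was lower in KO than in WT at day 9 and higher in NSCs, both at low levels. Its day 9 libraries were at 1.21, 2.84 and 2.87 FPKM in WT and at 0.856, 0.364 and 1.09 in KO, without overlap. The log2 difference was -0.88 (95% interval -1.45 to -0.30, limma adjusted p = 0.0616). It was called without WT day 9 replicate 1 (-1.15, adjusted p = 0.0156) and with libraries scaled to the same sum (-0.95, adjusted p = 0.0487). It was also called with the replicate block (limma adjusted p = 0.0191), although the replicate numbers did not pair the libraries at day 9. Its NSC libraries were at 0.118, 0 and 0 FPKM in WT and at 0.260, 0.815 and 0.817 in KO. The difference in NSCs was 0.63 (0.06 to 1.21, limma adjusted p = 0.216), and it was called with a pseudocount of 0.1 in place of 1 (2.37, adjusted p = 0.00291), so it depends on how values near 0 are treated. The KO effect on *Tbx3* in NSCs minus that at day 9, a contrast chosen because these values went opposite ways, was 1.51 ± 0.39 (limma adjusted p = 0.0226, with 5.84% of tested genes called), so its p is no independent test. That call was lost without WT day 9 replicate 2 or 3, KO day 9 replicate 2, or KO NSC replicate 2 or 3 (adjusted p 0.0574 to 0.0727). *Esrrb* was the other gene without overlap at day 9, at 6.13, 4.91 and 5.94 FPKM in WT and 8.04, 6.24 and 8.26 in KO (0.35, -0.46 to 1.16).

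The size of the fall from mESCs was compared between genotypes directly, as the KO effect at a stage minus the KO effect in mESCs. For this difference limma called 0 of 10 factors at day 7, day 9 and in NSCs, where 1.68%, 2.68% and 2.26% of tested genes were called. At an unadjusted p under 0.05 the counts were 2, 2 and 0 of 10, beside 9.84%, 12.4% and 14% of all tested genes. *Klf5* was among them at both times, with -0.87 at day 7 (95% interval -1.64 to -0.10, adjusted p = 0.4) and -0.87 at day 9 (-1.64 to -0.10, adjusted p = 0.315). Its share of the mESC mean left at day 7 was 6.91% in WT and 3.79% in KO. *Zfp42* at day 7 (-0.61, adjusted p = 0.343) and *Tbx3* at day 9 (-0.95, adjusted p = 0.276) were the others. All 3 contrasts share the mESC libraries, so the *Klf5* values at day 7 and day 9 rest on the same mESC difference. With the replicate block both *Klf5* values were called (adjusted p = 0.0377 and 0.0297). The replicate numbers paired the libraries in mESCs and not at day 7 or day 9.

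Markers of other cell types differed between KO and WT in the same libraries. At day 7 the summed level of 6 mesoderm markers was 62.5 to 163 FPKM in WT and 3.84 to 5.90 in KO, and 3 of the 3 tested, *T*, *Meox1* and *Snai1*, were called lower in KO, where 2.50% of all tested genes were, while *Mesp1* was at 0 in every KO library. The sum of 6 endoderm markers was 25.0 to 56.4 FPKM in WT and 5.30 to 6.53 in KO, with 2 of 3 tested, *Sox17* and *Foxa2*, called lower and *Dab2* at similar means (4.94 ± 0.254 and 4.97 ± 0.618). The sum of 6 surface ectoderm markers was 320 to 598 FPKM in WT and 121 to 211 in KO. Here 3 of 3 tested, *Cdh1*, *Krt8* and *Krt18*, were called lower. The list's *Krt5*, *Krt14* and *Trp63* did not pass the filter. The sum was already 78.2 to 93.6 FPKM in WT mESCs, so it is not particular to surface ectoderm. Of 4 tested trophectoderm markers *Cdx2* and *Eomes* were called lower at day 7, and in mESCs *Cdx2* was called higher (1.30) and *Krt18* lower (-1.43) in KO. Of 6 germ cell markers 0 were called by limma at day 7, where 3.68% of all tested genes were. An unadjusted p under 0.05 was found for 2 of the 6, beside 13.9% of all tested genes. At day 9 the mesoderm sum was 18.5 to 52.2 FPKM in WT and 6.76 to 16.5 in KO, with 2 of 3 called lower, where 4.11% of all tested genes were. The endoderm sum was 30.5 to 56.7 FPKM in WT and 6.27 to 15.2 in KO, with *Foxa2* called lower. The surface ectoderm sum was 164 to 236 FPKM in WT and 70.4 to 107 in KO, with 3 of 3 tested called lower, against the same 4.11%. The 6 neural markers were mixed, with *Sox1* higher and *Olig2* and *Vim* lower in KO at day 7 and *Sox1* and *Pax6* higher and *Olig2* lower at day 9. The part of these cell types in the differences of the naive factors was not tested.

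The genes around the factors were described with lists of the pathway. Of 14 other genes of naive mESCs, 13 fell and 1 rose in WT at day 7, with a median of -2.71 on the log2 scale, where 30.2% of all tested genes fell and 29.1% rose. The list held *Dppa5a*, a small RNA-binding protein of mESCs, at 5463 ± 2130 FPKM in WT mESCs and 489 ± 97.2 at day 7, and *Tdh*, the threonine dehydrogenase of mESCs, at 480 ± 67.1 and 47.1 ± 8.34 FPKM. *Gbx2*, a homeobox gene, was the gene that rose. At day 9 all 14 were called lower than in WT mESCs, with a median of -4.17, where 35.1% of all tested genes were. At day 9 5 of the 14 were called higher in KO than in WT, where 2.58% of all tested genes were, namely *Gbx2* (1.71), *Tdh* (0.97), *Dppa4* (0.67), *Fbxo15* (0.59) and *Jam2* (0.54). *Tdh* was at 11.7, 9.82 and 9.68 FPKM in WT and 27.5, 15.8 and 22.0 in KO day 9 libraries, without overlap (limma adjusted p = 0.000536). In NSCs *Dppa5a* was called higher in KO (0.95) and *Gbx2* lower (-1.10), while *Vim* was lower (-0.55) and *Dab2* higher (0.60).

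The arms that feed the factors were described list by list, and no test compared the lists. Of 7 genes of LIF signalling 6 fell and 1, *Jak2*, rose in WT at day 7, beside 30.2% and 29.1% of all tested genes. *Stat3* itself fell from 20.2 ± 1.59 to 6.59 ± 0.602 FPKM, and *Pim1*, a STAT3 target, from 125 ± 11.2 to 42.2 ± 3.53 FPKM. In NSCs *Stat3* was above its mESC level, at 57.7 ± 7.06 FPKM, and *Pim1* was at 2.56 ± 0.889. *Il6st*, the shared receptor chain gp130, fell from 40.1 ± 2.28 to 10.6 ± 1.67 FPKM. *Pim1* was lower in KO than in WT at day 7 (-0.73, limma adjusted p = 0.00803), *Lifr* was lower in KO at day 9 (-0.55) and *Il6st* was higher in KO NSCs (0.40).

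The GSK3 and beta-catenin list gave 2 calls in each genotype at day 7. Of 7 genes *Ctnnb1* (0.25) and *Gsk3b* (0.48) rose in WT at that time, where 29.1% of all tested genes did, and none was called lower, with a median of -0.05. In KO 2 of 7 were called lower, *Axin2* (-0.82) and *Lef1* (-0.84), where 31.8% of all tested genes were. *Ctnnb1*, which encodes beta-catenin, was at 292 ± 11.7 FPKM in WT mESCs and 347 ± 10.5 at day 7, and *Gsk3a* at 51.1 ± 2.02 and 49.4 ± 2.80. *Axin2* (1.29) and *Lef1* (0.91), both targets of beta-catenin, were called higher in KO than in WT at day 9, and *Gsk3b* lower (-0.46). Of 6 targets of MEK and ERK, 4 rose and 1 fell in WT at day 7, beside 29.1% and 30.2% of all tested genes. In KO at day 7 2 rose and 1 fell, beside 29.5% and 31.8% of all tested genes. At day 9 against mESCs 1 rose and 3 fell in WT, beside 36.4% and 35.1%. WT mESC replicate 2 was the highest of its group for all 6, with *Egr1* at 76.5 FPKM against 14.3 and 0.0739 in the other libraries. *Dusp6*, the phosphatase that limits ERK, went from 3.19 ± 2.98 to 41.6 ± 4.27 FPKM, while *Etv5* fell from 204 ± 29.0 to 36.3 ± 7.73. *Spry2*, a feedback inhibitor, was at 34.8 ± 15.1 FPKM in WT mESCs and 52.5 ± 15.8 at day 7. *Etv4* was called higher in KO at day 9 (0.84).

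**Figure D4:**
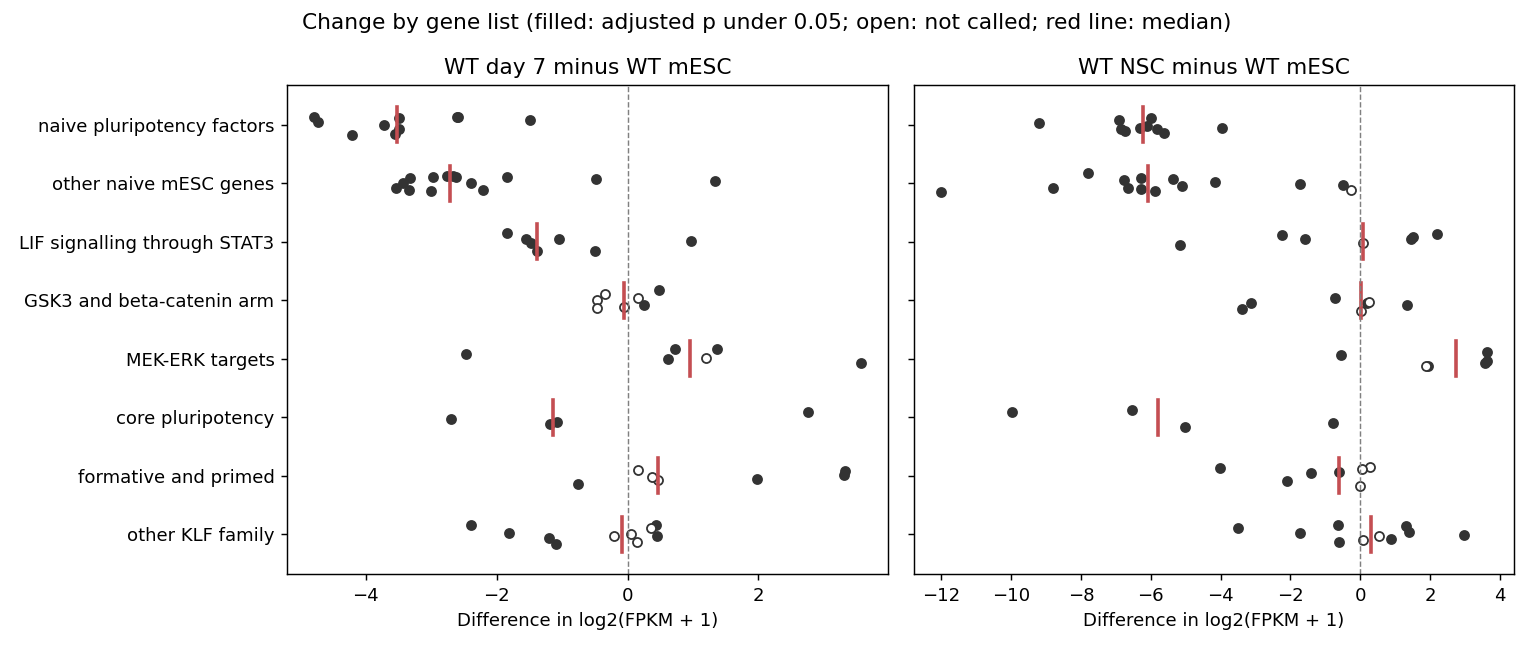
Difference in log2(FPKM + 1) of each tested gene by list, for WT day 7 (left) and WT NSCs (right) against WT mESCs, with filled points for called genes, open points for genes not called and a red line at the list's median. The naive factors lie lowest at day 7, with a median of -3.52, and the targets of MEK and ERK lie above 0 apart from *Etv5*.

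Genes of core and formative pluripotency were used to place the day 7 cells. Of 4 core genes 3 fell and 1, *Lin28a*, rose in WT at day 7, against 30.2% and 29.1% of all tested genes. *Sox2* kept 138 ± 9.12 of its 315 ± 3.90 FPKM and *Pou5f1* 211 ± 45.8 of its 1359 ± 109 FPKM. Of 7 formative and primed genes 3 rose in WT at day 7, *Fgf5*, *Otx2* and *Pou3f1*, and 1, *Zic5*, fell, while in KO 5 rose, where 29.5% of all tested genes did. *Dnmt3b*, the de novo methyltransferase of the epiblast, was at 35.1 ± 12.3 FPKM in WT mESCs and 48.2 ± 12.0 at day 7. *Otx2*, a homeobox factor of the formative epiblast, was at 12.3, 15.4 and 17.1 FPKM in WT and 67.6, 41.7 and 55.5 in KO day 7 libraries, and was called higher in KO (1.79, limma adjusted p = 0.000187). *Fgf5* was called lower in KO at day 7 (-0.75). At day 9 *Otx2* (1.41), *Zic2* (2.69) and *Zic5* (2.42) were called higher in KO, and *Sox2* was called lower in KO NSCs (-0.49). At day 9 none of the 4 core genes was called between KO and WT by limma, but all 4 had an unadjusted p under 0.05, beside 17.3% of all tested genes, with a median of 0.49. *Sox2* was at 148 ± 15.3 FPKM in WT and 186 ± 12.6 in KO at that time (0.33, adjusted p = 0.173).

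The rest of the Krüppel-like family was described in the same way. Of 13 other family members 10 were tested, and in WT at day 7 4 fell and 2 rose, with a median of -0.08, where 30.2% of all tested genes fell and 29.1% rose. *Klf9* fell furthest of these, from 52.8 ± 1.72 to 9.62 ± 3.39 FPKM, and *Klf10* from 34.0 ± 11.7 to 13.8 ± 1.67. In NSCs against day 9, where *Klf4* rose, 5 of the 10 rose and 2 fell in WT, with a median of 0.31, and 8 rose and 1 fell in KO, with a median of 0.78. Of all tested genes 24.8% rose in WT and 27.2% in KO. *Klf6* (-0.63) and *Klf7* (-1.01) were called lower in KO than in WT at day 9. No test compared the naive members with the rest of the family.

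The genes most like the 10 factors over the 24 libraries were *Mpzl2*, *Chmp4c*, *Tex19.1*, *Galnt6* and *Rpl10l*. They were found by Pearson's correlation with the mean of the 10 standardised profiles, and *Mpzl2*, an adhesion protein, had r = 0.995. *Tex19.1*, a gene of mESCs and germ cells, was at 122 FPKM in WT mESCs, 8.28 at day 7 and 0 in NSCs. In all, 1185 tested genes had r above 0.9. The libraries fall into stages, so a gene high in mESCs and low later scores high, and the value is a description.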

How the data were processed

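Poly(A) RNA of the 24 libraries (8 groups of 3) was prepared by the authors with a stranded kit and sequenced as single-end reads. Per the labels, reads were trimmed with Trim Galore 0.6.6, aligned to mm9 with TopHat2 2.1.1 and passed to Cuffdiff, with ribosomal RNA reads and the X chromosome left out. The deposited table gives FPKM for every gene in each library, as the authors computed them. Read totals were not used here, and the library normalization within Cuffdiff and the use of strand in counting are not given in the sources used here. Of the 36 FPKM columns 12 were not used in any step, since they belong to none of the 24 samples. Relative read numbers were worked out from the most common ratio of low values between each library and WT mESC replicate 1. After scaling by these numbers, 95.26% of 31400 values above 0 of low genes were whole multiples of the gene's smallest value (tolerance 0.05). That smallest value counts as a multiple of itself. FPKM sums ran from 504572 to 802675.

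Contrasts were tested two-sided on log2(FPKM + 1) with limma 3.58.1 in R 4.3.3 (with statmod 1.5.0). The 8 groups shared a fit with no intercept, eBayes used its trend and robust options, and the test ran over 12105 genes with a mean of at least 1 FPKM. The 1 gene with a failed estimate was left out. Fold changes on this scale understate the change of low genes. With 3 against 3 libraries an exact permutation test cannot go below p = 0.1, so none is quoted. The procedure was tested on simulated data. Library pairs were not copies (lowest within-group r 0.955, at most 3.74% of values shared). The replicate numbers were taken to pair KO and WT libraries where every same-numbered pair deviated together with r above 0.1, which held in mESCs (lowest r 0.141) and NSCs (0.184), and not at day 7 (0.0376), day 9 (-0.107) or between stages.

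The genes, lists and tests were chosen with earlier results of these data known. Named genes are the 10 factors, the 2 members of each other list highest in WT mESCs, members of a list called between KO and WT, and the 5 genes most like the 10 factors. *Stat3*, *Jak2*, *Dusp6*, *Egr1*, *Lin28a*, *Pou3f1* and *Mesp1* fall outside this rule and were named after their values were seen. *Krt5*, *Krt14* and *Trp63* also fall outside it and are named as untested genes of their list. The lists were other naive genes, LIF signalling, the GSK3 arm, targets of MEK and ERK, core, formative and other Krüppel-like genes, and markers of neural, endoderm, mesoderm, trophectoderm, germ and surface ectoderm cells. Alternatives were a pseudocount of 0.1, no filter, libraries scaled to the same sum, only the compared groups in the fit, a replicate block, and each library left out in turn. Promoters were taken from RefSeq and matched to the mm9 genome.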

Additional observations from a re-analysis of the deposited data

Results flagged for a closer look

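The KO effect on *Tbx3* in NSCs minus that at day 9 was 1.51 on the log2 scale (SE 0.39, limma adjusted p = 0.0226). KO was the lower genotype in 3 of 3 libraries at day 9 and the higher in 3 of 3 in NSCs. The contrast was chosen because of this, so its p is no independent test of a difference, and the KO effect was not called at day 9 (adjusted p = 0.0616) or in NSCs (0.216). In that contrast 707 of 12105 genes (5.84%) were called. Over its alternatives the adjusted p ran from 0.00145 to 0.0727. The call was lost without WT day 9 replicate 2 (0.0727) or 3 (0.0719), KO day 9 replicate 2 (0.0666) and KO NSC replicate 2 (0.0574) or 3 (0.0623). All *Tbx3* values behind it are under 3 FPKM.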

How the results depend on the processing

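The fall of all 10 factors against mESCs was called at day 7, day 9 and in NSCs, in WT and in KO, under each alternative run. Of 2050 values of single factors under the alternatives 1951 kept their sign and their side of the threshold, whatever the size of the shift. Another 75 changed sign without a call in either fit, 16 gained a call and 8 lost it. None that was called changed sign.

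The counts of factors called between KO and WT were less firm. At day 7 the count went from 0 to 1 with only the compared groups in the fit and with the replicate block (*Zfp42*, adjusted p = 0.0474 under the block). At day 9 it went from 0 to 1 with the same sum, with the replicate block (*Tbx3*, 0.0191) and without WT day 9 replicate 1, and over the fits without 1 library it ran from 0 to 1. In NSCs it went from 0 to 1 with the pseudocount of 0.1. The KO effects relative to mESCs went from 0 to 1 factor at day 7 and at day 9 with the replicate block (*Klf5*, adjusted p = 0.0377 and 0.0297). The replicate numbers did not pair the libraries at day 7 or day 9, and paired them in mESCs. The block changed no other count of factors. With a library left out, factors called between day 9 and day 7 ran from 6 to 9 in WT and from 3 to 6 in KO. In KO mESCs 2 factors changed rank when medians replaced means.

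Counts over all genes moved more. In mESCs 64 genes were called between KO and WT, but 164 without the filter and 1 with only those groups in the fit; at day 9 809 became 1377 with those groups alone and 1221 without the filter, and in NSCs 729 became 58 with those groups alone. Depth limits values near 0, and calls on genes under 1 FPKM in NSCs can turn on the pseudocount, as for *Tbx3*.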
